A study of Mus musculus with 8 samples.

Results

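The replication-dependent histone genes are the short genes, clustered in the genome, that supply most of the H1, H2A, H2B, H3 and H4 protein of a dividing cell. They were taken as all protein-coding genes of the mm9 annotation (GENCODE M1) whose symbol begins with Hist1h, Hist2h, Hist3h or Hist4h, which gave 67 of the 22367 protein-coding genes on the nuclear chromosomes. The study mapped 5-hydroxymethylcytosine (5hmC), an oxidised form of 5-methylcytosine, by GLIB-Seq, in which fragments with 5hmC are tagged through a sugar, pulled down with biotin and sequenced. It holds 1 library for each of 6 groups, and the question here is where peaks of 5hmC lay on the histone genes in pluripotent cells, in differentiated cells and after loss of Suz12, a subunit of Polycomb repressive complex 2. The ESC group is the untreated mouse embryonic stem cell line E14, and the shGFP and shSuz12 groups are E14 cells transfected with a hairpin against GFP, as control, or against Suz12 and selected with puromycin. MEFs are embryonic fibroblasts of C57BL/6 mice, for which the labels give embryonic day 11 and the methods a later day. The brain and liver groups are whole tissue of C57BL/6 mice of 8 weeks, so that cell types within a tissue cannot be told apart.

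Transcripts of these genes are made in S phase, when new DNA needs new nucleosomes, and they end in a stem-loop bound by SLBP in place of a poly(A) tail. H2A, H2B, H3 and H4 form the nucleosome core, H1 binds the linker DNA between cores, and a few members serve in the male germ line, where Hist1h1t, Hist1h2aa and Hist1h2ba replace their somatic counterparts in spermatocytes and spermatids. Active CpG-rich promoters in general carry little methylated cytosine and therefore little substrate for the Tet enzymes that make 5hmC.

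Of the 67 genes, 55 lie on chromosome 13, 9 on chromosome 3, 2 on chromosome 11 and 1 on chromosome 6. The set holds 6 H1, 19 H2A, 18 H2B, 11 H3 and 13 H4 genes. Their spans run from 312 to 37383 bp with a median of 530 bp, against a median of 15427 bp over all protein-coding genes, and 51 of them are at most 1000 bp long. The deposited lists held 171866 peaks in ESCs, 132999 in shGFP, 138708 in shSuz12, 217026 in MEFs, 130409 in liver and 157512 in brain. Each peak has a score that grows as its p-value falls, and scores began at 80 in ESCs and liver, 50.02 in shGFP, 30.34 in shSuz12 and 30 in MEFs and brain. Read counts are not in the lists, the lists stop at different scores, no group has a replicate, and no difference between libraries was tested. Exact (Clopper-Pearson) 95% intervals are given for shares and cover counting error alone.

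Most replication-dependent histone genes had no 5hmC peak near the TSS in any library. A peak within 1 kb of the TSS, by at least 1 bp, was found for 25 of the 67 genes in at least 1 library (37.3%, interval 25.8 to 50%), against 59.4% of all protein-coding genes and 24.6% of those of at most 1000 bp. In all 6 libraries it was found for 0 members, against 2.71% of all genes. Free of peaks in both the gene span and the TSS window in every library were 38 members (56.7%), against 4472 of all genes (20%) and 75.4% of those of at most 1000 bp. Of the 51 members of at most 1000 bp 18 had a promoter peak in any library (interval 22.4 to 49.9%) and 33 had no peak (interval 50.1 to 77.6%). The members thus had peaks less often than all genes, while for the short members the intervals included the shares of short genes. In ESCs 5 genes had such a promoter peak (7.46%, interval 2.47 to 16.6%), against 31.9% of all protein-coding genes. In shGFP 4 genes had one (5.97%, interval 1.65 to 14.6%), against 27.1%, and in shSuz12 also 4 genes, against 21.4%. In brain the count was 5 genes (7.46%), against 20.0%. MEFs had 16 genes with a promoter peak (23.9%, interval 14.3 to 35.9%), against 30.1%, and liver 15 genes (22.4%, interval 13.1 to 34.2%), against 29.4%. The histone genes thus lay below the share of all genes in the ESC libraries and in brain, while in MEFs and liver the interval included the share of all genes. The MEF count rested on weak peaks. Of the 14 distinct peaks behind it 12 had a score under 80, the lowest score of the ESC and liver lists. With peaks under 80 removed from all lists, 2 members had a promoter peak in MEFs (2.99%, interval 0.364 to 10.4%), against 2681 of the 22367 protein-coding genes (12%). The counts were 4 in shGFP (interval 1.65 to 14.6%) against 4255 of all genes (19%), 2 in shSuz12 (interval 0.364 to 10.4%) against 5.07% and 1 in brain (interval 0.0378 to 8.04%) against 5.45%. At that score the members thus lay below all genes in ESCs, shGFP and MEFs, while in shSuz12, brain and liver the interval included the share of all genes. Of the 67 windows 47 overlap that of another member, so that a peak can count for more than 1 gene and the intervals are too narrow to that extent. Among all protein-coding genes of at most 1000 bp a promoter peak was found for 14.3% in ESCs, 11.0% in shGFP, 9.59% in shSuz12, 10.4% in MEFs, 9.12% in liver and 8.80% in brain. Of the 51 members of that length 5 had one in ESCs (interval 3.26 to 21.4%), 4 in shGFP (2.18 to 18.9%), 4 in shSuz12 (2.18 to 18.9%), 12 in MEFs (12.8 to 37.5%), 9 in liver (8.40 to 30.9%) and 5 in brain (3.26 to 21.4%). The interval included the share of short genes in 5 libraries. In MEFs it lay above that share on the full list, but at a score of at least 80 only 2 of all 67 members kept a promoter peak, and the short class was not tested at that score.

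Outside the testis histone genes, the peaks that did fall near these genes lay beside the TSS. The TSS itself was under a peak for 2 genes in ESCs, against 11.8% of all protein-coding genes, for 2 in shGFP (11.2%), 2 in shSuz12 (5.83%), 1 in MEFs (6.87%), 3 in brain (4.46%) and 1 in liver (5.38%). All of these genes were among the testis histone genes Hist1h1t, Hist1h2aa and Hist1h2ba, and for the other 64 members the TSS was under a peak in 0 cases in each of the 6 libraries. Among genes with a promoter peak, the TSS was covered for 2 of 5 members in ESCs, against 2629 of 7139 genes. The counts were 3 of 5 in brain against 997 of 4476, 1 of 16 in MEFs against 1537 of 6725 and 1 of 15 in liver against 1204 of 6573. In shGFP they were 2 of 4 against 2508 of 6068, and in shSuz12 2 of 4 against 1304 of 4787. These shares were not tested. Averaged over positions within 1 kb, 3.91% of the members were under a peak in ESCs, and 3.23% at 2 to 5 kb upstream. In liver the same values were 6.74% within 1 kb, 13.4% at 2 to 5 kb upstream and 15.2% at 2 to 5 kb downstream, so that the flanks were covered more than the TSS windows. Over all protein-coding genes the liver values were 10.3% within 1 kb, 12% at 2 to 5 kb upstream and 18.7% at 2 to 5 kb downstream.

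**Figure D1:**
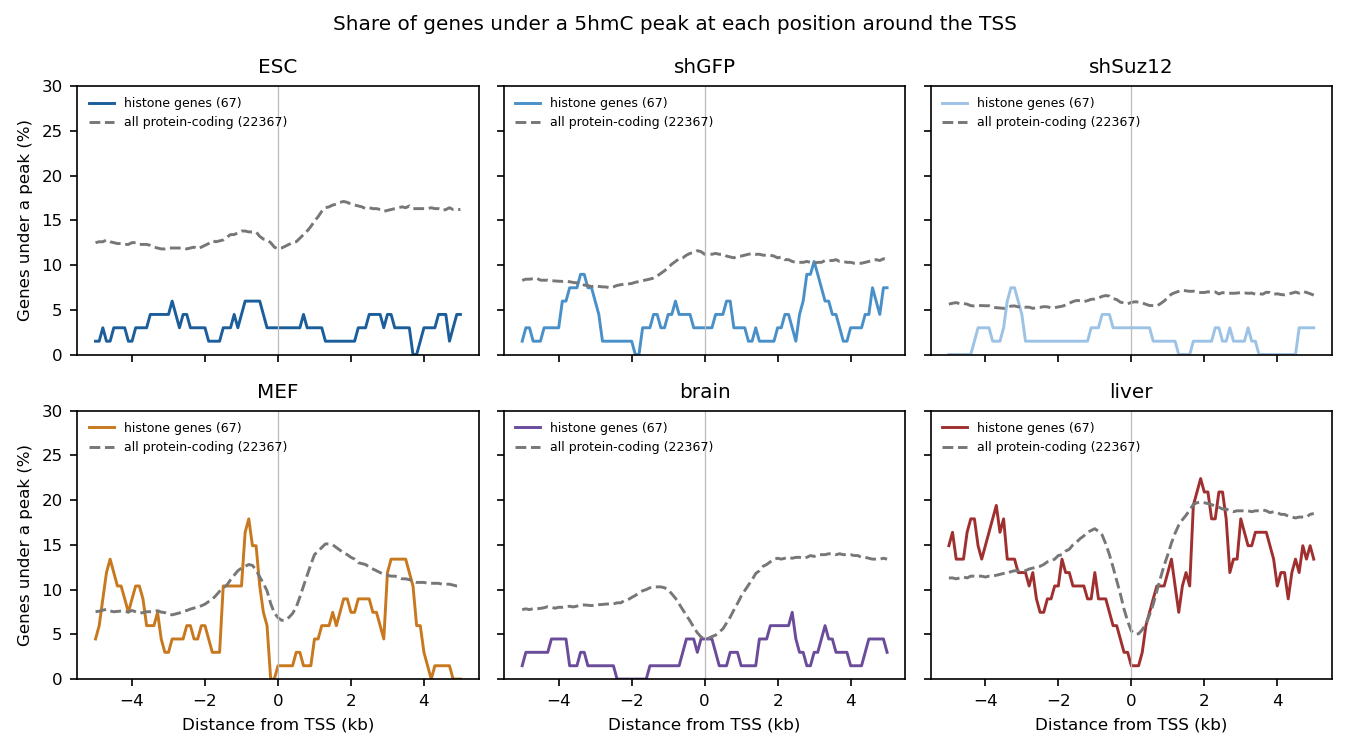
Percent of genes under a 5hmC peak (vertical axis) at each 100 bp from 5 kb upstream to 5 kb downstream of the TSS (horizontal axis, kb), with 1 panel per library, for the 67 histone genes (solid) and the 22367 protein-coding genes (dashed). The histone genes lie below all genes within 1 kb in ESCs (mean 3.91% against 13.1%), and in liver they reach 1.49% at the TSS.

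A peak in the annotated gene was found for 3 members in ESCs (4.48%, interval 0.933 to 12.5%), against 67.8% of all protein-coding genes. The counts were 5 in shGFP against 63.4%, 4 in shSuz12 against 63.0%, 6 in MEFs against 61.0%, 6 in brain against 60.7% and 11 in liver (16.4%) against 57.9%. Gene length differs between the sets, and among the 1897 protein-coding genes of at most 1000 bp, a class chosen after the annotation had been seen, 9.38% had a peak in the gene in ESCs, 7.75% in shGFP, 6.06% in shSuz12, 5.38% in MEFs, 5.01% in liver and 4.48% in brain. Of the 51 members of that length 2 had one in ESCs (3.92%, interval 0.478 to 13.5%), 3 in shGFP (5.88%, 1.23 to 16.2%), 2 in shSuz12, 1 in MEFs (1.96%, 0.0496 to 10.4%), 3 in liver and 3 in brain. Each interval included the share of short genes. The percent of bp covered does not rise with length as such a count does. Long genes weigh most in its value over all genes, and it was not computed for short genes alone. A median of 33.7% of the 36-base words in a member's gene span occurred once in the genome with up to 2 mismatches. Reads kept only at unique places cannot reach the rest, and the part of this in the coverage was not tested. Peaks covered 2.81% of the bp of the members in ESCs, against 11.6% of the bp of all protein-coding genes. The corresponding values were 4.09% against 7.41% in shGFP, 3.41% against 5.23% in shSuz12, 3.11% against 11.8% in MEFs, 2.47% against 13.9% in brain and 10.8% against 12.8% in liver. Hist1h2be, an H2B gene annotated over 37383 bp, held much of the covered bp in the ESC libraries. Without it the members' coverage fell to 1.07% in ESCs, 2.71% in shGFP, 1.57% in shSuz12 and 2.41% in brain. In MEFs the coverage without it rose to 3.73%, and in liver to 12.6%. Within 1 kb of the TSS, with overlapping windows merged, 3.68% of bp were covered in ESCs against 13.4% for all protein-coding genes, and 8.05% in liver against 10.1%.

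Among the members, the testis genes Hist1h2ba and Hist1h2aa had the most bp covered around the TSS in each ESC library. Hist1h2ba and Hist1h2aa, which encode the testis forms of H2B and H2A, are transcribed away from each other, with TSSs 306 bp apart, at chr13:24025637-24026025 on the minus strand and chr13:24026331-24026720 on the plus strand. They share their peaks. In ESCs a peak of 2253 bp at chr13:24024818-24027070, with a score of 1230.3, covered both genes whole, all 2000 bp of the Hist1h2ba window and 1740 bp of the Hist1h2aa window. In shGFP the peak had 2210 bp and a score of 802.2, and covered 2000 and 1758 bp of these windows. In shSuz12 it had 1705 bp and a score of 174.6, and covered 1705 and 1533 bp. MEFs had a peak of 742 bp with a score of 38.4 at the Hist1h2aa side, which covered 390 bp of Hist1h2aa, its whole span, and 0 bp of Hist1h2ba. In brain a peak of 950 bp with a score of 66.3 covered 92.8% of Hist1h2aa and 72.8% of Hist1h2ba. Liver had 0 bp under peaks in both genes and both windows. The brain and MEF peaks scored under 80, where the liver list begins, so that liver cannot be ranked against them.

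Hist1h1t, the testis form of the linker histone H1, had its longest peak in liver. Its span is chr13:23787680-23788588 on the plus strand. In liver a peak of 3136 bp with a score of 1060.7 covered all 2000 bp of its TSS window and all 909 bp of the gene. Brain had a peak of 1041 bp with a score of 51.8 that covered the TSS and the gene. In ESCs a peak of 683 bp, with a score of 125.5, lay from -989 to -307 bp of the TSS and did not reach the gene. In shGFP peaks of 521 and 524 bp covered 1045 bp of the window, and the latter covered 57.6% of the gene. MEFs and shSuz12 had 0 bp in both the window and the gene. Counted by gene, the 3 testis genes had promoter peaks in 3 of 3 cases in ESCs, shGFP and brain, 2 in MEFs and shSuz12 and 1 in liver. Because Hist1h2ba and Hist1h2aa share each peak, these are not independent cases, and the 2 in MEFs and in shSuz12 are the same peak in each library. The other 64 members had 2 in ESCs, 1 in shGFP, 2 in shSuz12, 2 in brain and 14 each in MEFs and liver.

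Among those other members the promoter peaks of the ESC libraries belonged to Hist3h2ba and Hist1h2al. Hist3h2ba, an H2B gene at chr11:58762413-58763032, had 587 bp of its window covered in ESCs, 438 bp in shSuz12 and 47 bp in MEFs, and 0 bp in shGFP, brain and liver. Its ESC peak lay upstream, from -1257 to -414 bp of the TSS. Hist1h2al, an H2A gene at chr13:51298057-51298434, stands alone 27.3 Mb from the nearest other member on its chromosome, and had 361 bp covered in ESCs, 700 bp in shGFP, 177 bp in shSuz12, 546 bp in MEFs, 0 bp in liver and 355 bp in brain. Its gene span was free of peaks in all 6 libraries.

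**Figure D2:**
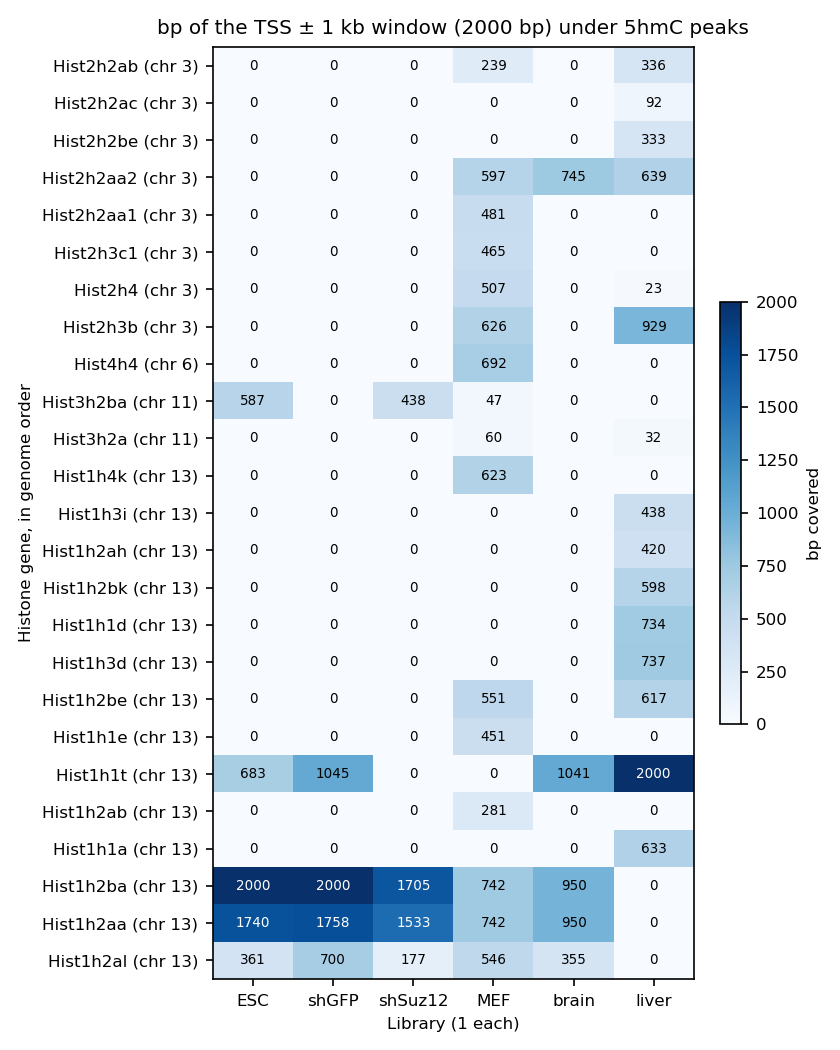
The bp of the 2000 bp window around the TSS that lay under 5hmC peaks (color and printed number), for the 25 histone genes with a promoter peak in any library (rows, in genome order) in the 6 libraries (columns, 1 library each). The ESC libraries have values only at Hist1h2ba, Hist1h2aa, Hist1h1t (0 bp in shSuz12), Hist1h2al and Hist3h2ba (0 bp in shGFP), and the MEF and liver libraries hold most of the remaining values, up to 929 bp outside Hist1h1t.

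Of the somatic H1 genes, which encode linker histones found in most dividing cells, Hist1h1d had 734 bp of its window covered in liver. Hist1h1a had 633 bp of its window and 380 bp of its gene covered in liver. Hist1h1e had 451 bp in MEFs. None of the 3 had a promoter peak in another library. Hist1h1c had 0 bp within 1 kb of its TSS in all libraries but 74 bp at its end under a brain peak. Hist1h1b was bare in gene and window in all libraries.

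The promoter peaks were counted by type of core histone, beside the 8.80 to 14.3% of short genes with a promoter peak, and no type was tested against another. The 11 H3 and 13 H4 genes had 0 promoter peaks in ESCs, shGFP, shSuz12 and brain. In MEFs 2 H3 and 3 H4 genes had one, and in liver 3 H3 genes and 1 H4 gene. H2A genes had promoter peaks in 2 of 19 cases in ESCs, 7 in MEFs, 5 in liver and 3 in brain, and H2B genes in 2 of 18 cases in ESCs, 3 in MEFs, 3 in liver and 1 in brain. Without the testis pair, which shares its peaks, 1 of 18 H2A and 1 of 17 H2B genes had one in ESCs, and 2 and 0 in brain. In MEFs 6 of these H2A genes (interval 13.3 to 59.0%) and 2 of the H2B genes had one. In liver the counts were 5 (interval 9.69 to 53.5%) and 3. Both H2A intervals lay above the shares of short genes, 10.4% in MEFs and 9.12% in liver. They included the shares of all genes, 30.1% and 29.4%. The H2A genes include some over 1000 bp. In MEFs the peaks behind the 6 H2A genes had scores of 31.8, 30.9, 61.6, 64.7, 78.1 and 88.0. Only that of Hist3h2a, with 60 bp of its window covered, scored at least 80. The other types and the short genes were not counted at that score. On chromosome 13 the core histone genes outside the testis pair and Hist1h2al with a promoter peak were Hist1h4k (623 bp), Hist1h2be (551 bp) and Hist1h2ab (281 bp) in MEFs. In liver they were Hist1h3d (737 bp), Hist1h2be (617 bp), Hist1h2bk (598 bp), Hist1h3i (438 bp) and Hist1h2ah (420 bp). Hist1h2be was thus covered in both, and the remaining genes of this group in 1 library each. Hist1h3d had 986 of its 1249 bp under the liver peak (78.9%), which lay from 263 to 1528 bp downstream of the TSS. Hist1h2bk and Hist1h2ah share a liver peak of 733 bp with a score of 86.0. Over the long span of Hist1h2be peaks covered 2316 bp in ESCs, 2537 bp in shGFP, 2615 bp in shSuz12, 714 bp in MEFs, 2778 bp in liver and 969 bp in brain, and 0 bp of its coding part in each of the 6. Without a promoter peak, the H2B gene Hist1h2bc had 1942 of its 8290 bp covered in liver, and the H2A gene Hist1h2ac 886 bp in liver and 715 bp in MEFs.

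The genes on chromosome 3, named Hist2, had promoter peaks in the MEF and liver lists and none in the ESC libraries. The 9 genes span chr3:96023839-96082924, in which the lists held 1 peak in ESCs, 4 in shGFP, 7 in shSuz12, 8 in MEFs, 13 in liver and 5 in brain, or 1.29%, 4.27%, 7.86%, 10.9%, 26.9% and 8.82% of the bp. Promoter peaks were found for 6 of the 9 genes in MEFs, 6 in liver, 1 in brain and 0 in each of ESCs, shGFP and shSuz12, where the shares of all genes were 30.1%, 29.4%, 20.0%, 31.9%, 27.1% and 21.4%. For 0 of 9 genes the interval reached 33.6% and included the shares of all genes, and for 6 of 9 in liver it ran from 29.9 to 92.5%. At a score of 80 or more, where the ESC list begins, 1 of the 9 genes (Hist2h3b) kept a promoter peak in MEFs, 0 in brain and 6 in liver, so that the MEF count cannot be set against the ESC count. The H3 gene Hist2h3b had 929 bp of its window covered in liver and 626 bp in MEFs. The H2A gene Hist2h2aa2 had 745 bp in brain, 639 bp in liver and 597 bp in MEFs, and its near-identical copy Hist2h2aa1 had 481 bp in MEFs alone. The peak upstream of Hist2h2aa1 also gave the H3 gene Hist2h3c1 its 465 bp in MEFs, as their TSSs lie side by side, and the Hist2h3c1 span had 960 bp covered in liver and 15 bp in MEFs. The H2A gene Hist2h2ab had 336 bp in liver and 239 bp in MEFs, and the H4 gene Hist2h4 507 bp in MEFs and 23 bp in liver, with 241 bp of its gene covered in liver and 123 bp in brain. Hist2h2be and Hist2h2ac, H2B and H2A genes read in opposite directions, had 333 and 92 bp in liver alone, from the same peak. Peaks covered 66.3% of the Hist2h2be span in liver. Hist2h2bb, an H2B gene annotated over 9281 bp, was the member of this cluster with no promoter peak in any library, and its gene span had 665 bp covered in shGFP, 361 bp in shSuz12 and 597 bp in MEFs.

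Of the remaining members off chromosome 13, the H4 gene Hist4h4 at chr6:136752589-136752900 had 692 bp of its window covered in MEFs and 0 bp in the other 5 libraries. Hist3h2a, an H2A gene at chr11:58768187-58770176, had 60 bp of its window covered in MEFs and 32 bp in liver. Its peaks lay over the later part of the gene, with 995 bp of the gene span covered in MEFs and 1022 bp in liver (51.4%), and 0 bp in the other libraries.

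The 38 members without any peak included Hist1h1b, Hist1h2ad, Hist1h2ae, Hist1h2af, Hist1h2ag, Hist1h2ai, Hist1h2ak and Hist1h2an, the first 8 by symbol. Apart from Hist1h1b these encode replication-dependent H2A. The median distance from a member's TSS to the nearest peak was 10874 bp in ESCs, 9683 bp in shGFP, 9917 bp in shSuz12, 2972 bp in MEFs, 2607 bp in liver and 15161 bp in brain. Over all protein-coding genes these medians were 2617, 3924, 4258, 3278, 3740 and 4763 bp. By these medians the histone genes were farther from a peak than all genes in the ESC libraries and brain, and nearer in MEFs and liver. The medians carry no interval and the differences were not tested. They rest on the full lists, in which 34.1% of MEF and 21.1% of brain peaks scored at least 80. Distances were not computed at that score.

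The chromosome 13 cluster falls into dense blocks. From the first to the last member on the chromosome there are 29491 kb, because Hist1h2al lies far from the rest, and 240 other protein-coding genes lie between. Peaks covered 6.61% of that span in ESCs, 4.89% in shGFP, 3.42% in shSuz12, 11.4% in MEFs, 9.27% in liver and 9.77% in brain. Splitting at gaps of over 300 kb left block 1, chr13:21807632-22135545 with 23 members, and block 2, chr13:23622919-24026720 with 31 members. From the start of block 1 to the end of block 2 peaks covered 1.98% of bp in ESCs, 2.33% in shGFP, 1.51% in shSuz12, 1.69% in MEFs, 3.26% in liver and 0.882% in brain. The same percentages for the whole chromosome were 5.40%, 3.93%, 2.74%, 8.69%, 6.07% and 7.59%. Most of that stretch lies between the blocks and holds no member. The blocks alone were covered to 3.60% in ESCs, 4.10% in shGFP, 2.68% in shSuz12, 4.29% in MEFs, 9.03% in liver and 2.14% in brain, which was below the chromosome in ESCs, shSuz12, MEFs and brain and above it in shGFP and liver. Between the blocks 1487 kb hold 38 other protein-coding genes, of which 32 are vomeronasal receptor genes named Vmn1r, and all of these 32 were bare in gene and TSS window in the 6 libraries.

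In block 1 most peaks of the ESC library lay away from the histone genes. The block held 16 peaks in ESCs, 19 in shGFP, 17 in shSuz12, 15 in MEFs, 7 in liver and 3 in brain. Of these 15 in ESCs, 12 in shGFP, 13 in shSuz12, 12 in MEFs, 3 in liver and 3 in brain lay in a gap of 197.6 kb between Hist1h2br and Hist1h2ah, which holds no member but other genes such as Prss16 with 2069 bp covered in ESCs. From Hist1h2bl to Hist1h2br, where 18 members lie in 121.8 kb, peaks covered 0.595% in ESCs, 3.81% in shGFP, 1.81% in shSuz12, 1.13% in MEFs, 1.19% in liver and 0% in brain. From Hist1h2ah to Hist1h2bj, with 5 members in 8.564 kb, they covered 19.1% in liver, 8.65% in MEFs and 0% in the other 4 libraries. The first of these stretches includes copies that unique reads cannot reach. Over the TSS windows and coding parts of the members of block 1, 0 bp were covered in ESCs, shGFP, shSuz12 and brain, against 1.90% in MEFs and 3.17% in liver. The rest of the block was covered to 4.13% in ESCs, 5.13% in shGFP, 3.36% in shSuz12, 2.83% in MEFs, 1.60% in liver and 1.10% in brain.

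Block 2 held 17 peaks in ESCs, 17 in shGFP, 16 in shSuz12, 27 in MEFs, 51 in liver and 14 in brain. Its coverage was 3.50% in ESCs, 3.68% in shGFP, 2.40% in shSuz12, 5.56% in MEFs, 14.9% in liver and 3.08% in brain. Between Hist1h1a and the testis pair at the end of block 2 lie 169.4 kb without a member, which hold 4 genes of the Slc17a family of anion and phosphate transporters and Trim38. There liver had 32 peaks over 21.6% of the bp, against 4.26% in ESCs, 4.26% in shGFP, 2.33% in shSuz12, 7.90% in MEFs and 4.50% in brain. Up to Hist1h1a, where 29 members lie, peaks covered 23759 bp of the 233.4 kb in liver (10.2%), 8609 bp in MEFs, 6555 bp in shGFP, 5840 bp in ESCs, 4665 bp in shSuz12 and 3861 bp in brain.

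**Figure D3:**
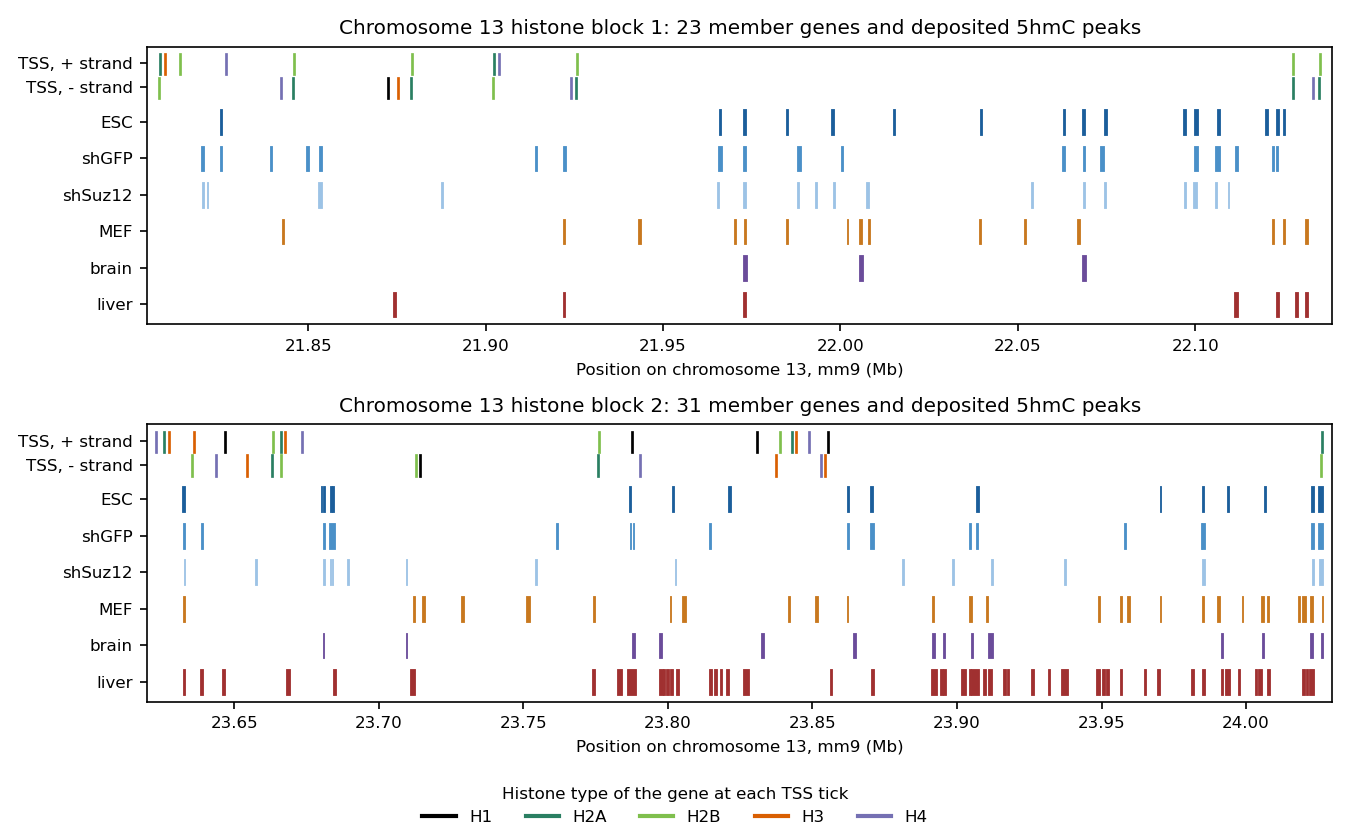
Both blocks of histone genes on chromosome 13 (horizontal axis, position in Mb, mm9), with the TSS of each member as a tick colored by histone type on 2 rows for the strands, and the deposited 5hmC peaks of the 6 libraries as bars. In block 1 the ESC peaks lie mostly in the part with no member, and in block 2 the 51 liver peaks are densest where few members lie.

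Knockdown of Suz12 was compared with its control hairpin, with 1 library each. Of the 4 members with a promoter peak in shGFP, 1 (Hist1h1t) had none in shSuz12, while 44.1% of all protein-coding promoters covered in shGFP were bare in shSuz12. Of the 4 with a promoter peak in shSuz12, 1 (Hist3h2ba) had none in shGFP, against 29.2% over all genes. That peak had a score of 35.3, under the 50.02 at which the shGFP list begins, so that shGFP could not list its like, and with all lists cut at 80 it was 0 of 2, against 19.9%. At that score 2 of the 4 members covered in shGFP were bare in shSuz12, against 78.7%. The ESC and shGFP libraries, both without a knockdown, differed by 1 member. Of the 5 covered in ESCs, 1 (Hist3h2ba) was bare in shGFP, against 32.0% of all promoters covered in ESCs, and 0 of the 4 covered in shGFP were bare in ESCs, against 20.0%. From shGFP to shSuz12 the covered bp fell by 1045 at Hist1h1t, fell by 523 at Hist1h2al, fell by 295 at Hist1h2ba and fell by 225 at Hist1h2aa. Hist3h2ba had 0 bp in shGFP and 438 bp in shSuz12, a difference that rests on the same cut-off. The remaining 62 members had 0 bp within 1 kb of the TSS in both lists. Peaks of the shSuz12 list covered 3.15% of the genome and those of shGFP 4.56%, and the part of this difference in the values above was not tested.

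The reads were kept only where they mapped to 1 place with up to 2 mismatches, and histone genes have near copies, so the share of each window that such reads can reach was computed from the genome. Of the 36-base words starting within 1 kb of the TSS, a median of 68.5% over the 67 members occurred once in the genome with up to 2 mismatches, with a range from 0% to 99.7%. In the coding part the median was 8.21%. The 6 genes Hist1h2bq, Hist1h2ao, Hist1h4m, Hist1h4n, Hist1h2ap and Hist1h2br in block 1 form facing copies with at most 2.45% unique words around the TSS, and all of them were without a promoter peak. A lack of peaks there, and in coding parts with no unique word, cannot be read as a lack of 5hmC. The 25 members with a promoter peak in any library had a median of 77.2% unique words around the TSS, and the other 42 a median of 62.6%. Among the 56 members with at least 50% unique words, 5 had a promoter peak in ESCs, 4 in shGFP, 4 in shSuz12, 13 in MEFs, 14 in liver and 4 in brain. With at least 90% there were 6 members, Hist2h4, Hist4h4, Hist1h1b, Hist1h2be, Hist1h1t and Hist1h1a, of which 1 had a promoter peak in ESCs, 1 in shGFP, 0 in shSuz12, 3 in MEFs, 4 in liver and 1 in brain. The testis genes are more distinct in sequence than most members. Hist1h1t had 99.7% unique words around the TSS and 98.9% in the coding part, Hist1h2aa 82.1% and 70.8%, and Hist1h2ba 82.1% and 49.9%. The part of unique sequence in the differences between members was not tested.

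**Figure D4:**
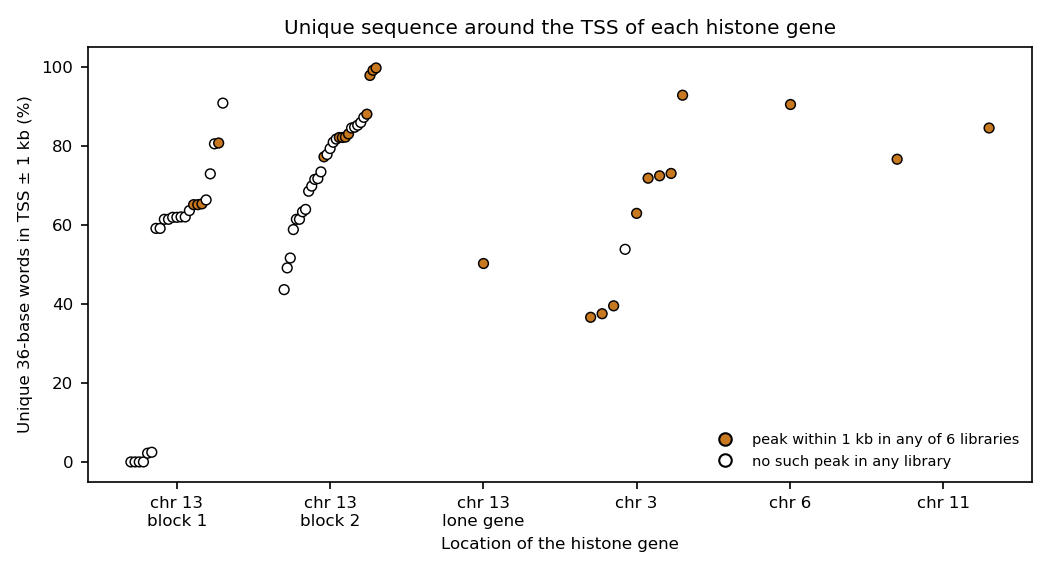
Percent of 36-base words within 1 kb of the TSS that occur once in the mm9 genome with up to 2 mismatches (vertical axis) for each of the 67 histone genes, grouped by location (horizontal axis), with filled points for genes that had a promoter peak in any of the 6 libraries. The 6 points at or under 2.45% are copies in block 1 without a promoter peak, and open points are also found up to 90.8%.

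The members' promoters are rich in CpG. The window of 1 kb on each side of the TSS held a median of 91.0 CpG (range 48.0 to 136), against 61.0 over all protein-coding genes, and the median ratio of observed to expected CpG was 0.751 against 0.468, at a GC content of 49.4% against 51.1%. By CpG class, 36 members were high-CpG promoters (HCP, a 500 bp window with a ratio above 0.75 and GC above 55%), 31 were intermediate (ICP) and 0 were low (LCP, no window above 0.48). Of the 36 HCP members 1 had a promoter peak in ESCs, against 27.1% of all HCP genes, and of the 31 ICP members 4, against 41.1%. In liver the counts were 6 of 36 against 40.5% and 9 of 31 against 34.5%. No interval was computed for these counts, the classes hold genes of any length, and short genes were not split by class. The HCP members include Hist1h2ao, Hist1h2ap, Hist1h2bq and Hist1h2br, with 0% unique words around the TSS. Hist1h1t had the lowest ratio of all members, 0.415, with 48 CpG in its window, while Hist1h2ba had 85 CpG and a ratio of 0.650, and Hist1h2aa 79 CpG and 0.628.

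Promoter motifs were read from 250 bp upstream to 50 bp downstream of the TSS, on both strands. CCAAT was found at 57 of the 67 members (85.1%), against 37.9% of all protein-coding genes, and TATAAA at 38 (56.7%), against 13.4%. Both were found at 33 members (49.3%), against 5.44%. The promoters of 3 genes are printed for the contrast in peaks, with each match to either motif, read on either strand, in capitals. A match describes the sequence and is not evidence of binding. The first is Hist1h2aa (chr13:24026081-24026380, plus strand), which reaches into the promoter it shares with Hist1h2ba and lay in full or in part under peaks in 5 libraries. The next is Hist1h1t (chr13:23787430-23787729, plus strand), under a peak in full in liver, and the last is Hist1h1b (chr13:21872445-21872744, minus strand), with no peak in any library although 90.8% of the words around its TSS are unique.
Hist1h2aa: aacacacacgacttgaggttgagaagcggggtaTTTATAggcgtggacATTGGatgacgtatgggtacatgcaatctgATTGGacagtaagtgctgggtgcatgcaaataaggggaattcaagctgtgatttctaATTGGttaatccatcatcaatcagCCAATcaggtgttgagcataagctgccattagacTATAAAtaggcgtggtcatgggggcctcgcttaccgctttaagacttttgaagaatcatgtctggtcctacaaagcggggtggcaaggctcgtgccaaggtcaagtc
Hist1h1t: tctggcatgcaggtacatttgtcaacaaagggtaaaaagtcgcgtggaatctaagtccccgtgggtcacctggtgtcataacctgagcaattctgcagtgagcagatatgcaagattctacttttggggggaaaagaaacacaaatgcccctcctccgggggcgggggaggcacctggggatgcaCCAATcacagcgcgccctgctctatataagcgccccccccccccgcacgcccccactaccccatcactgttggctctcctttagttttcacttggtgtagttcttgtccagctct
Hist1h1b: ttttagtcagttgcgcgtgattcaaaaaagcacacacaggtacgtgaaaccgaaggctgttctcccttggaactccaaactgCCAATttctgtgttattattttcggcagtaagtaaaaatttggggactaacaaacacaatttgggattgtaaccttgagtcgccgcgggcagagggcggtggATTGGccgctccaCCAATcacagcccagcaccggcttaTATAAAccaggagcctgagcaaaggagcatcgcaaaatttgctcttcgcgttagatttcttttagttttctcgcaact
These 300 bases hold 9 CpG at Hist1h2aa, 10 at Hist1h1t and 15 at Hist1h1b.

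The stem-loop at the end of the transcript is the feature that sets these genes apart from those with a poly(A) tail. Its core CTTTTNAG was found within 100 bp after the coding span, on the coding strand, at 59 of the 67 members (88.1%), against 246 of the 22367 protein-coding genes (1.10%). The site is shown with 4 bases on each side, which form the outer part of the stem, and with the core in capitals, to let the arms be compared among members. The commonest form was found at 36 members, the next at 9, among them Hist1h2ba and Hist1h1t, and another at 8 that all encode H4.
Hist1h2aa, chr13:24026760-24026775, plus strand: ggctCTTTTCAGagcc
Hist1h2ba, chr13:24025599-24025614, minus strand: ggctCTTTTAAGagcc
Hist4h4, chr6:136752519-136752534, minus strand: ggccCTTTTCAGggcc
The 8 members where the core was not found were Hist2h2be, Hist2h2bb, Hist1h2bp, Hist1h2bq, Hist1h2br, Hist1h3g, Hist1h4a and Hist1h2al. Of these, Hist2h2bb, Hist1h2bp, Hist1h2bq and Hist1h2br are annotated with 2 coding exons. The search began after the last of them, so that a core after the first exon would have been missed. Promoter peaks were found in ESCs for 4 of the 59 members with the core and 1 of the 8 where it was not found, and in liver for 14 and 1.

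The members of a type differ in how alike their translated coding parts are, which bears on how far reads can be placed. All 13 H4 genes encode the same protein of 103 residues through 12 different coding sequences, and 6 of the 11 H3 genes share a protein of 136 residues, while Hist2h3c1 is annotated with 181 residues. Of the 19 H2A genes 9 share the commonest protein of 130 residues, and Hist1h2aa was the least like it, with 88.5% identity. For H2B the commonest protein of 126 residues was shared by 4 of 18 genes, and the lowest identity to it was 68.3% at Hist2h2bb, while Hist1h2ba had 88.2%. The 6 H1 proteins all differed, and Hist1h1t had 54.7% identity to Hist1h1b, lower than any other H1 gene.

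Other histone genes and the factors that make histone mRNA gave a further comparison. Of 14 replication-independent histone genes, whose products also serve outside S phase, 13 were found by symbol. Of these 5 had a promoter peak in ESCs, 4 in shGFP, 4 in shSuz12, 5 in MEFs, 4 in liver and 6 in brain. The shares of all protein-coding genes, 31.9%, 27.1%, 21.4%, 30.1%, 29.4% and 20.0%, are given above, and no list was tested against them. Peaks covered 35.2% of their gene bp in ESCs, 18.6% in shGFP, 14.2% in shSuz12, 31.4% in MEFs, 37.8% in liver and 33.2% in brain. Much of this lay in H2afy, which encodes macroH2A over 62743 bp and had 34017 bp covered in ESCs and 38038 bp in liver. H2afv, H3f3a and H3f3b, which encode H2A.Z and H3.3 proteins, had no promoter peak in any library. Among 16 genes for histone mRNA factors 3 had a promoter peak in ESCs, 2 in shGFP, 2 in shSuz12, 5 in MEFs, 4 in liver and 1 in brain, and 14 had a peak in the gene in ESCs, where 67.8% of all genes had one. The promoter shares of all genes were those named for the former list. Slbp, for the protein that binds the stem-loop, had no promoter peak in any library and 0 bp of its gene covered in ESCs, 509 bp in shGFP, 760 bp in shSuz12, 1136 bp in MEFs, 836 bp in liver and 1228 bp in brain. Npat, a coactivator of histone gene transcription, also had no promoter peak, with 0 bp of the gene covered in ESCs, shGFP and MEFs, 413 bp in shSuz12, 2466 bp in liver and 1606 bp in brain. Lsm11 of the U7 particle and the cleavage factors Cpsf1, Cpsf2 and Cstf2 were likewise without a promoter peak in the 6 libraries.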

How the data were processed

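The study's GLIB-Seq reads were base-called with CASAVA 1.8 and mapped to mm9 with Bowtie 0.12.7 by the authors, who kept unique hits with up to 2 mismatches and 1 read of each redundant set, and ran MACS 1.4.1 on each library. The deposited values of each peak are its start and end, an other kind of value that has no normalization, and a score from MACS, taken as 10 times the negative log10 of the p-value within its library. Thresholds and controls are not given in the sources used here, nor is the read length. The RNA-Seq libraries were not analysed here.

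Peaks were compared with GENCODE M1 genes on NCBIM37, the same assembly as mm9, and mitochondrial peaks were left out. The TSS is the annotated gene start. An overlap needed at least 1 bp. The members and lists were chosen with earlier results of these data known. Named genes were those with a promoter peak in all 6 libraries, the 5 with most promoter bp in ESCs, the 5 largest falls and rises from shGFP to shSuz12, the 5 with the largest mean covered percent of the gene, all members outside chromosome 13, the testis genes, 8 members without peaks and, of each list, up to 6 with promoter peaks in all libraries or in none. Other members were named after their values had been seen. CpG classes were read from 500 bp windows between 700 bp upstream and 200 bp downstream of the TSS. Sequences and coding parts come from NCBIM37. Unique words were counted on both strands. The overlap step was tested on simulated peaks and recovered 198 of 198 windows. Python 3.11.15, numpy 2.4.6, pandas 2.3.3, scipy 1.17.1, numba 0.67.0, pysam 0.24.0 and matplotlib 3.10.9 were used. The shares of all genes at a score of at least 80 and over the 6 libraries together, the counts for short members and for types without the testis pair, and the parts of block 1 were added after the main results were known. Alternatives were peaks of higher score, other windows, larger overlaps, blocks of the cluster and longer words.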

Additional observations from a re-analysis of the deposited data

How the results depend on the processing

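Of 98 values under an alternative, 58 moved, and the cause was not tested. A count moved when it changed by more than 1.5-fold, a coverage when it left its counting interval, and a unique share at any change. With the 50% of each list that scored highest, promoter peaks were found for 3 members in ESCs, 8 in MEFs and 6 in liver, gene peaks for 1 in MEFs and 7 in liver, and 0 promoters were covered in shSuz12 and bare in shGFP. Coverage from the first to the last member on chromosome 13 was then 3.75% in ESCs, 7.18% in MEFs, 6.16% in brain, 6.34% in liver, 2.92% in shGFP and 1.76% in shSuz12. With all lists cut at a score of 80, promoter peaks were found for 2 members in MEFs, 1 in brain and 2 in shSuz12, and gene peaks for 1, 0 and 2. That coverage was 5.40% in MEFs, 3.07% in brain, 3.16% in shGFP and 0.6% in shSuz12, with 2 promoters covered in shGFP and bare in shSuz12 and 0 the other way.

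With the window cut to 500 bp either side the counts were 9 members in MEFs, 8 in liver and 2 in shSuz12, with 0 covered in shSuz12 and bare in shGFP. With 2 kb they were 25 in MEFs, 8 in brain, 28 in liver and 7 in shGFP, with 4 covered in shGFP and bare in shSuz12 and 3 the other way. With at least 200 bp of the window covered, 2 were covered in shGFP and bare in shSuz12. With at least 50% of the gene covered the counts were 2 in MEFs, 3 in brain, 5 in liver, 3 in shGFP and 2 in shSuz12, and with the coding span they were 1 in MEFs, 3 in brain, 5 in liver and 3 in shGFP. The blocks and the lone gene Hist1h2al, without the stretches between them, were covered to 3.59% in ESCs, 4.29% in MEFs, 2.14% in brain, 9.03% in liver, 4.10% in shGFP and 2.68% in shSuz12. Without Hist1h2al the span was covered to 1.98%, 1.69%, 0.882%, 3.26%, 2.33% and 1.51% in the same order. With 50-base words the median unique share was 71.3% of the TSS window and 12% of the coding span.

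The coding-start window, the coding span and the span without Hist1h2al were added after the data had been seen. Each condition has 1 library, so a paired analysis was not possible. The peaks give no amount of 5hmC per base, absence of a peak is not absence of 5hmC, and scores depend on read depth, which is unknown. ESCs, MEFs, brain and liver differ in cell origin and age at once, so no difference among them can be laid to 1 of these.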
